A study of Mus musculus with 3 samples.

Results

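The genes described here encode the factors that start, extend and end protein synthesis in R1, a line of embryonic stem (ES) cells from mice of strain 129. They were taken by symbol from the annotation of the array, as every gene named Eif, Eef1, Eef2, Etf1, Gspt or Pabpc with its number, and include the kinases, binding proteins and methyltransferases that carry the same stems. In all, 65 genes read by 74 probe sets met that rule, of 19057 genes measured. Total RNA of 3 repeats of the line, untreated as far as the labels say, was read on Affymetrix Mouse Gene 1.0 ST arrays, whose probes lie along the exons of each transcript. The repeats form 1 group and no second condition exists, so the questions are which factors gave signal and how far the repeats differed. The labels do not say how the cultures were kept, whether on feeder cells, or whether the repeats were separate cultures, so a p-value here measures only the spread between these arrays.

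Protein synthesis starts when eIF2 brings the initiator tRNA to the small ribosomal subunit, eIF3 holds the complex together, and the cap-binding complex of eIF4E, eIF4A and eIF4G recruits the mRNA. Elongation is driven by eEF1A, which delivers charged tRNAs, and eEF2, which moves the ribosome along. Termination uses eRF1 (Etf1) and eRF3 (Gspt1), and poly(A)-binding proteins join the tail of the mRNA to its cap. Stress kinases phosphorylate eIF2 and so lower initiation. Several factors have a second gene that is used in only a few tissues, such as Eef1a2 in neurons and muscle or Pabpc1l in oocytes.

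Arrays were alike in level, with median probe set intensities of 47.8, 46.7 and 46.8 in repeats 1, 2 and 3. All 8 ES cell markers, among them Pou5f1, Sox2 and Nanog, lay above background on all 3 arrays. Of 8 fibroblast markers 7 did so too, against 71.4% of genes outside the receptor families that set the background. The summed intensity of the 8 was 1403, 2187 and 1455 in repeats 1, 2 and 3, so in this sum repeat 2 stood above the others. Dcn was highest in repeat 1, and Lum was below background on every array. The summed intensity of 8 interferon-induced genes, from a list made after the values were seen, was 323, 843 and 376 in repeats 1, 2 and 3. Of these 8 genes, 4 were above background on all arrays. Precision is limited by there being 3 arrays. Values are log2 intensities, and since intensity depends on the probes, no gene's level is set against another's. In RNA of whole cultures, a lower share of expressing cells and less RNA per cell cannot be told apart.

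The start regions shown here belong to the member that differed most between repeats, Eif2ak2, and to 3 members from different steps of translation that were picked after their matches were seen. They are RefSeq sequences of build GRCm38.p6, 5′ to 3′ on the gene's strand, and 48 of the 65 genes were found in that table. In the first, which runs from 150 bases before to 30 bases after the annotated start (chr17:78882543-78882722, minus strand), capitals mark a match to the core of the interferon-stimulated response element (ISRE), searched as GAAA, any 2 bases and GAAA.
Eif2ak2: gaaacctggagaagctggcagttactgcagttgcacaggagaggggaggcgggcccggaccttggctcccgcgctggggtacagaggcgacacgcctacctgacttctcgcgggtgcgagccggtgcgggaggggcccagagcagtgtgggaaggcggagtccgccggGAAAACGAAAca
The next 3 run from 70 bases before to 10 bases after the start, all on the plus strand, at chr10:81176561-81176640, chr7:108934345-108934424 and chr3:138527198-138527277, the last at 1 of the 2 starts listed for Eif4e. Capitals mark the E-box CACGTG, a site that factors such as Myc can bind, the TATA motif TATAAA, and, in Eef2 alone, the cAMP response element (CRE) TGACGTCA.
Eef2: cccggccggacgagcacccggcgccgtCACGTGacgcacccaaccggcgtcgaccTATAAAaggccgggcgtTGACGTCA
Eif3f: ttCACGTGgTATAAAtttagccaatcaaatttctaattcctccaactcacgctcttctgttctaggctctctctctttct
Eif4e: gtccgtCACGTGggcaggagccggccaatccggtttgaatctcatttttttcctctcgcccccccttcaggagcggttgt

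Both strands were searched over 250 bases before and 50 after each start, and CACGTG and TGACGTCA read the same on both. The ISRE core was chosen because of the values of Eif2ak2, and a further motif, the kinase conserved sequence of that promoter, was searched at first and is not reported here. The ISRE core was found for 2 of the 48 matched members (4.17%), Eif2ak2 and Eif3a, against 3.99% of the 27025 genes with a window and 3.3% of the 10117 genes that had a window and lay above background. CACGTG was found for 12 of the 48 (25%), against 8.09% of all genes and 11.6% of those above background. Those 12 are the initiation and elongation genes Eif1b, Eif3a, Eif3f, Eif3k, Eif4a1, Eif4e, Eif4h, Eif5a, Eif5a2, Eef2, Eef2k and Eef1aknmt. TATAAA was found for 3 of the 48 (6.25%), against 15.7% of all genes and 8.84% of those above background. TGACGTCA was found for 1 of the 48 (2.08%), Eef2, against 2.03% of all genes and 3.53% of those above background. No pair of the marked motifs overlaps in the sequences shown. These are matches of letters, and binding was not measured.

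Background on each array was set by 1171 genes of olfactory and vomeronasal receptors, and a gene had to pass their 95th percentile, which lay at log2 4.72, 4.60 and 4.61 in repeats 1, 2 and 3. On all 3 arrays 62 of the 65 translation factor genes did so, against 71.4% of the 17886 genes outside the receptor families. The exceptions were Pabpc2, Pabpc6 and Eif4a3l1. At higher cutoffs, the 99th percentile of the receptors or the 95th of other silent families (keratin-associated proteins, defensins, taste and trace amine receptors), 56 of 65 passed, against 55.02% and 47.01% of genes outside the receptor families. The 6 that no longer passed were the same at both: Eef1akmt3, Eef2k, Eif4e1b, Eif4e3, Pabpc1l and Pabpc4l. A gene below a cutoff was not shown to be silent.

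**Figure D1:**
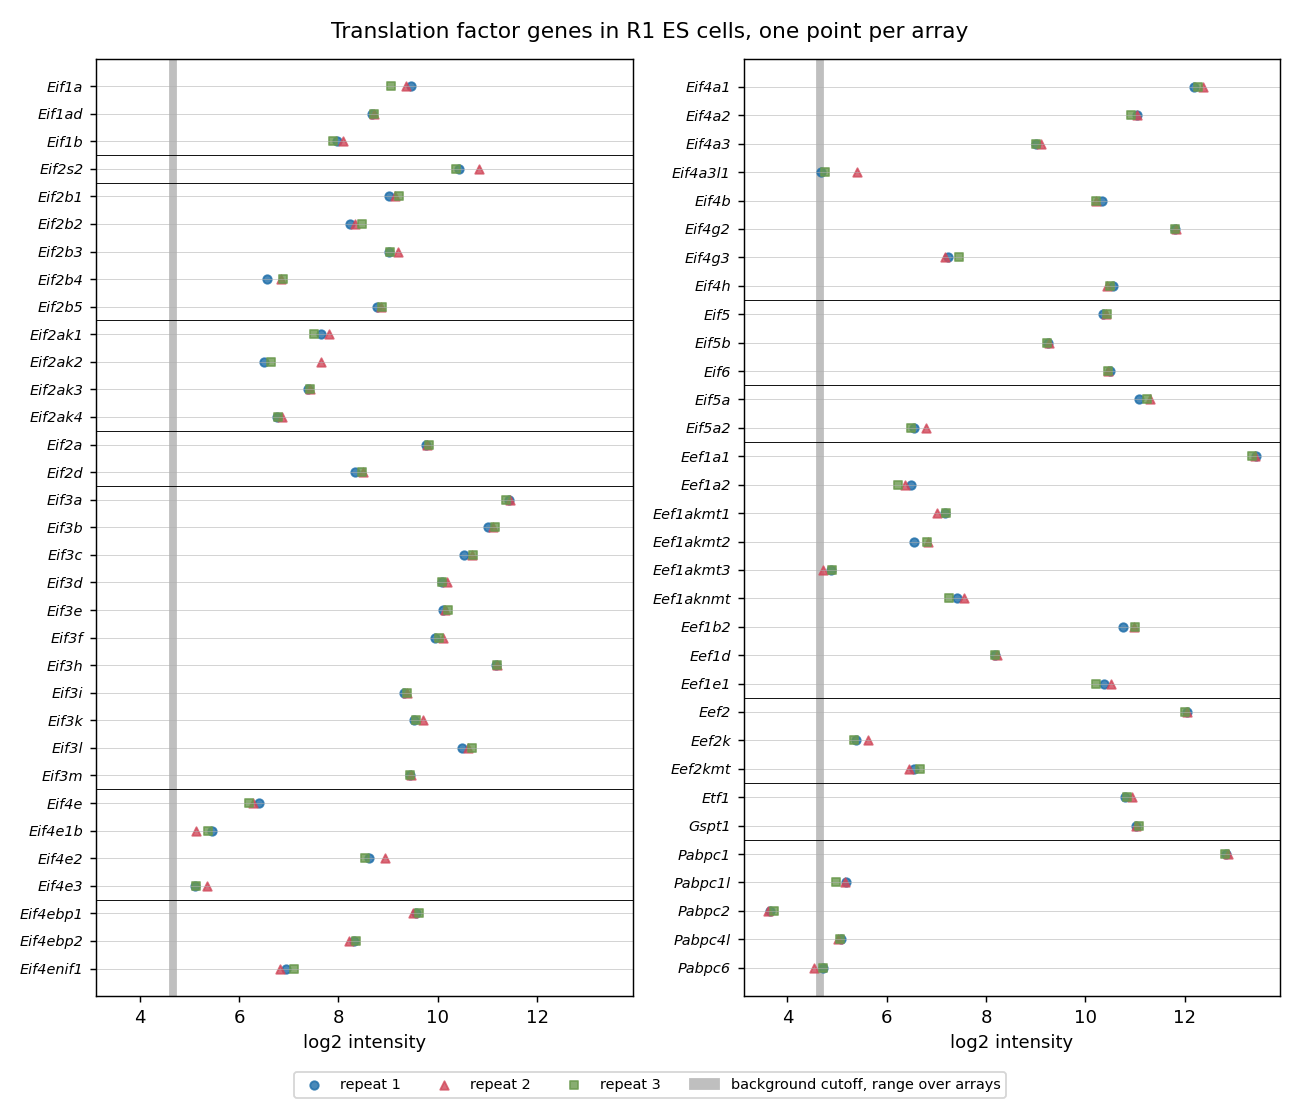
Log2 intensity (horizontal axis) of the 65 translation factor genes in each of the 3 repeats, grouped by role, with the range of the background cutoff over arrays in grey. In 62 genes every point lies above its array's cutoff, Pabpc2 lies below it on every array, and Eif2ak2 shows the widest gap between repeats.

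Factors of start codon selection and of the initiator tRNA gave signal throughout. Eif1a, which with eIF1 keeps the ribosome scanning, read 9.47, 9.35 and 9.05 in repeats 1, 2 and 3, with repeat 3 lowest. Eif1ad, which shares the eIF1A fold, and Eif1b, a paralog of Eif1, averaged 8.70 ± 0.023 and 7.99 ± 0.097 (SD, n = 3). Eif2s2, the beta subunit of eIF2, read 10.43, 10.82 and 10.37, with repeat 2 highest. The 5 subunit genes of eIF2B, the exchange factor that recharges eIF2 with GTP, lay between 6.76 and 9.13 on average. Among them Eif2b4 read 6.55, 6.85 and 6.89, with repeat 1 lowest. None of the 5 had an unadjusted p under 0.05. Eif2a and Eif2d, which can deliver initiator tRNA outside the usual route, averaged 9.79 ± 0.038 and 8.44 ± 0.084. Eif1, Eif1ax, Eif2s1 and Eif2s3x were not analysed here.

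The 4 kinases that phosphorylate eIF2 under stress were all above background. Eif2ak2, the double-stranded RNA sensor PKR and an interferon-induced gene, read 6.49, 7.65 and 6.65 in repeats 1, 2 and 3. Repeat 2 was the highest array, 2.11-fold above the mean of the others. The haem-regulated kinase Eif2ak1 averaged 7.66 ± 0.14, the endoplasmic reticulum kinase PERK (Eif2ak3) 7.42 ± 0.018 and the amino acid sensor GCN2 (Eif2ak4) 6.80 ± 0.052 (SD, n = 3). Eif2ak3 and Eif2ak4 spanned 0.033 and 0.095 log2 units over the arrays, Eif2ak1 0.28 and Eif2ak2 1.15. Repeat 2 was the highest array for all 4, as it was for 36.9% of all genes above background. For Eif2ak3 it barely exceeded repeat 3, at 7.43 against 7.42, so the count does not show a shared rise of the kinases.

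All 11 measured genes of eIF3, the scaffold on the small subunit, were above background, with means from 9.36 for Eif3i to 11.42 for Eif3a. Their median SD was 0.057 log2 units. Eif3m had the smallest SD of all 65 genes, at 9.44, 9.45 and 9.45 in repeats 1, 2 and 3. That value averages 2 probe sets that moved in opposite directions. The first fell, at 9.70, 9.69 and 9.63 (SD 0.036). The second rose, at 9.18, 9.22 and 9.26 (SD 0.040), so averaging lowered the SD of the gene. Eif3h read 11.17, 11.20 and 11.20 and was also among the 3 most even members. The widest span among the 11, in Eif3l, was 0.19 log2 units.

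Cap-binding and mRNA-recruiting factors followed. The helicase Eif4a1 averaged 12.27 ± 0.084 and Eif4a2 11.002 ± 0.065 (SD, n = 3), and their activators Eif4b and Eif4h 10.26 ± 0.069 and 10.50 ± 0.052. Eif4a3, the related helicase of the exon junction complex, averaged 9.04 ± 0.054. Its copy Eif4a3l1 read 4.68, 5.41 and 4.76 in repeats 1, 2 and 3, and only repeats 2 and 3 exceeded the cutoff. The gene is a near copy of Eif4a3, and its value is uncertain. Of the eIF4G genes, Eif4g2 read 11.80, 11.82 and 11.82, Eif4g3 averaged 7.29 ± 0.15, and Eif4g1 was not analysed here. Of the proteins that hold eIF4E back, Eif4ebp1 averaged 9.57 ± 0.055 and Eif4ebp2 8.30 ± 0.072. Eif4enif1, which carries eIF4E into the nucleus, averaged 6.96 ± 0.14 over probe sets that read 8.40 and 5.51. Among later initiation factors, Eif5, which triggers GTP hydrolysis by eIF2, the subunit joining factor Eif5b and the anti-association factor Eif6 averaged 10.40 ± 0.040, 9.25 ± 0.017 and 10.47 ± 0.019.

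Elongation and termination factors were above background as well. Eef2 averaged 12.04 ± 0.023, and the subunits Eef1b2 and Eef1d of the exchange factor of eEF1A 10.92 ± 0.14 and 8.20 ± 0.027 (SD, n = 3). Eef1g was not analysed here. Eef1e1, a component of the multi-synthetase complex, averaged 10.37 ± 0.16. Eef2k, the kinase that inactivates eEF2, averaged 5.45 ± 0.15 and was below both higher cutoffs on at least 1 array. The methyltransferases of eEF1A and eEF2 ranged from 4.83 ± 0.096 for Eef1akmt3, close to the cutoff, to 7.40 ± 0.15 for Eef1aknmt. The release factors Etf1 and Gspt1 averaged 10.85 ± 0.072 and 11.04 ± 0.037.

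All 6 broadly used paralogs were above background under every alternative tried. Of the 7 tissue-restricted ones 5 were above the main cutoff, a share no different from the 71.4% of genes outside the receptor families, so that count shows nothing particular to them. Above each higher cutoff there were 2 of 7, against 55.02% of those genes at the receptors' 99th percentile and 47.01% at the cutoff of other silent families, and with 7 genes the difference was not tested. The 2 were Eef1a2 and Eif5a2. Eef1a2, the eEF1A gene of neurons and muscle, read 6.48, 6.37 and 6.23 in repeats 1, 2 and 3, above all 3 cutoffs on every array. Its broadly used counterpart Eef1a1 read 13.44, 13.42 and 13.36. Eif5a2, known from testis and brain, read 6.54, 6.79 and 6.48, likewise above all cutoffs. Eif5a, the hypusine-bearing factor that keeps ribosomes moving through difficult peptides, read 11.08, 11.30 and 11.24. The coding sequences of each pair are alike, and whether one paralog's transcript adds to the signal of the other was not tested.

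Among the cap-binding paralogs, Eif4e read 6.40, 6.29 and 6.20, and Eif4e2, a cap-binding protein that represses bound mRNAs, read 8.62, 8.94 and 8.53. The oocyte gene Eif4e1b read 5.45, 5.12 and 5.36, and Eif4e3, known from muscle and lung, read 5.12, 5.35 and 5.14. Every array of the last pair lay between the main cutoff and both higher ones, and the arrays of Eif4e and Eif4e2 lay above all cutoffs. For Eif4e and Eif4e1b this holds for the average of 2 probe sets only. The lower probe set of Eif4e, at 5.79, 5.60 and 5.73, was below the cutoff of other silent families on every array. The higher one of Eif4e1b, at 5.84, 5.24 and 5.78, exceeded the receptors' 99th percentile on repeats 1 and 3.

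Poly(A)-binding proteins showed the widest range of calls. Pabpc1, the main cytoplasmic form, read 12.82, 12.87 and 12.81. The oocyte form Pabpc1l read 5.17, 5.15 and 4.99 and Pabpc4l 5.07, 5.03 and 5.07, above the main cutoff and below the higher ones on all arrays. The testis genes Pabpc6, at 4.720, 4.55 and 4.73, and Pabpc2, at 3.65, 3.61 and 3.72, did not pass: Pabpc6 fell just short on repeat 1 and exceeded the cutoff on repeat 3 only and Pabpc2 on no array. Gspt2 and Pabpc5, also listed as tissue-restricted, were not analysed here, nor was Pabpc4, whose probe sets name a second gene.

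Markers of the tissues that use these paralogs were read as well. Of the striated muscle markers 4 of 4 were above the main cutoff and 1 of 4, Acta1, above the cutoff of other silent families. The counts were 2 and 1 of 4 for neurons (Tubb3 the one that stayed), 3 and 0 of 3 for oocytes, and 2 and 1 of 4 for testis germ cells (Ddx4 the one that stayed). Those cutoffs were passed by 71.4% and 47.01% of genes outside the receptor families. Myog, at 4.75, 4.63 and 4.61 in repeats 1, 2 and 3, passed the main cutoff only narrowly. Summed intensity over the muscle markers ranged from 171 to 189 and over the oocyte markers from 118 to 131 between arrays. Over the neuron markers it ranged from 214 to 237. The testis germ cell markers summed to 182, 229 and 167 in repeats 1, 2 and 3, with Ddx4 at 6.64, 7.22 and 6.48. The part of such cells in the signal of the restricted paralogs was not tested.

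**Figure D2:**
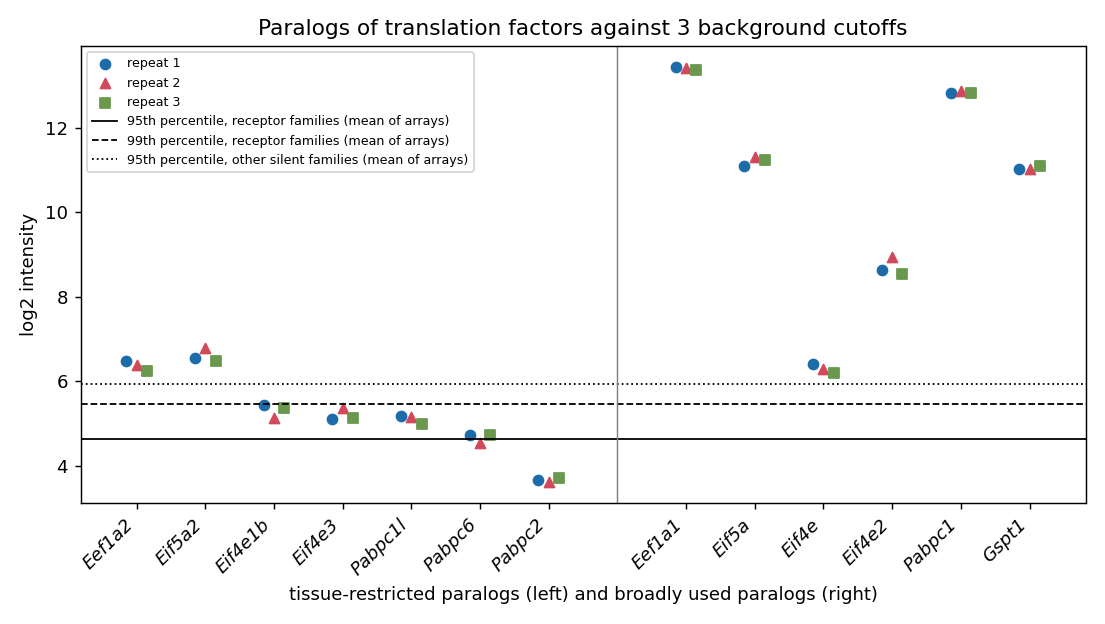
Log2 intensity of 7 tissue-restricted paralogs (left) and 6 broadly used ones (right) in each repeat, with horizontal lines at the 3 background cutoffs averaged over arrays. Eef1a2 and Eif5a2 lie above all lines, Eif4e1b, Eif4e3 and Pabpc1l between the lowest line and the highest, and Pabpc2 below all of them. Heights of different genes also depend on their probes.

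Differences between repeats were small for most members. The median SD over the 62 genes above background was 0.084 log2 units, against 0.101 over all 12821 such genes, and it was 0.052 without repeat 2, with 2 arrays left. More than 0.5 log2 units between the highest and lowest array was spanned by 1 of the 62, Eif2ak2, against 4.46% of all genes above background. That span was set after the values were seen. Neither comparison was matched for intensity, on which the SD can depend. They do not show that members differ less than other genes of like level. A variance test was built on limma's prior variance and is called limma's variance test here. In it, 0 of 64 members tested had an adjusted p under 0.05 (Benjamini-Hochberg over 13598 genes), against 0.162% of all genes tested. With an unadjusted p under 0.05 there were 5 of 64, Eif2ak2, Eif2s2, Eif4a3l1, Eif1a and Eif4e2, against 5.75% of all genes tested. That count was 2 without repeat 2, when Eif2ak2, Eif2s2, Eif4a3l1 and Eif4e2 had unadjusted p of 0.373, 0.586, 0.684 and 0.512 in limma's test, and 3 without repeat 3, when Eif1a had 0.398.

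**Figure D3:**
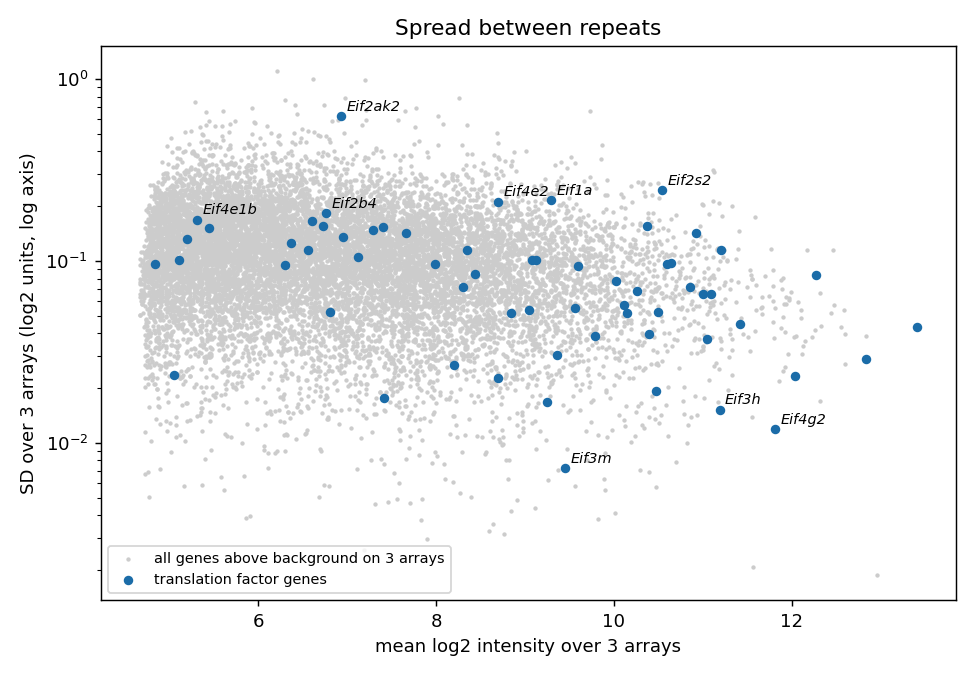
SD over the 3 arrays (log axis) against mean log2 intensity for genes above background on all arrays, with all such genes in grey and translation factor genes in blue. Eif2ak2 has the largest SD of the members, 0.63 log2 units, and Eif3m, Eif4g2 and Eif3h have the smallest. The point of Eif3m is the average of 2 probe sets that moved in opposite directions over the arrays.

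Eif2ak2 came closest to the threshold. Its adjusted p in limma's variance test was 0.0577, and 0.0285 once each array was centred on its median, so the call depends on the scaling. Over all alternatives that kept repeat 2 the adjusted p ranged from 0.0285 to 0.391, and without repeat 2 it was 0.997. Repeat 2 lay 1.08 log2 units above the mean of the others as deposited and 1.04 after quantile normalization. A difference at least as large in that direction was seen in 0.109% of the 12821 genes above background. Other interferon-induced genes, from a list made after values were seen, were also highest in repeat 2: Irgm1 read 5.42, 7.48 and 5.74 in repeats 1, 2 and 3, B2m 7.13, 8.40 and 7.43, and Oasl2 5.002, 6.12 and 5.22. Of 8 measured genes of that list, 4 were above background on all arrays and all 4 peaked in repeat 2, while Ifit3 was below background on every array. Above each higher cutoff there was 1 of the 8, B2m. Of the 7 fibroblast markers above background, 6 were highest in repeat 2, by 1.28-fold (Thy1) to 2.44-fold (Acta2) over the mean of the others. Dcn was highest in repeat 1, at 8.06, 8.02 and 7.77, and Lum was below background on every array. Of the 8 ES cell markers 5 were highest in repeat 2 as well, among them Nanog (1.28-fold) and Zfp42 (1.27-fold). Sox2, Sall4 and Klf4 were not. Among all genes above background 36.9% were highest in repeat 2. The part of fibroblasts in the Eif2ak2 signal was not tested.

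**Figure D4:**
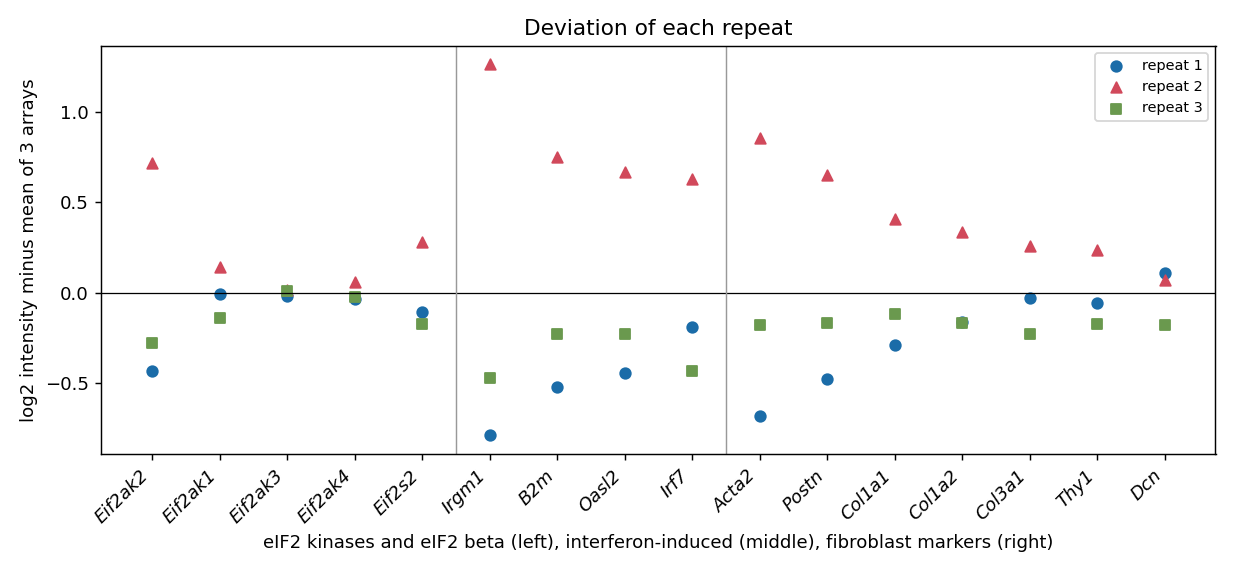
Log2 intensity of each repeat minus the mean of the 3 arrays, for the eIF2 kinases and Eif2s2 (left), interferon-induced genes (middle) and fibroblast markers (right). Repeat 2 is the highest array for every gene shown except Dcn, which is highest in repeat 1. The size of the difference varies, and Eif2ak3 stays within 0.033 log2 units over the arrays.

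The other 4 genes with a low unadjusted p differed less. Eif2s2 was 1.34-fold higher in repeat 2 than in the mean of the others, and both of its probe sets had their highest value there (limma's variance test, adjusted p = 0.429). Eif4e2 was 1.28-fold higher in repeat 2 (adjusted p = 0.836 in limma's test) and Eif4a3l1 1.61-fold higher (adjusted p = 0.491), with 1 of its arrays below the cutoff. Eif1a differed otherwise, with repeat 3 at 0.779 of the mean of the others (adjusted p = 0.755 in limma's test).

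Repeat 2 was the highest array in 31 of the 62 members above background, against 36.9% of all genes above background, and repeat 1 the lowest in 30, against 33.3%. The median over members of repeat 2 minus the mean of the others was 0.030 log2 units, against 0.0064 over all genes above background. That median became -0.0022 after quantile normalization and repeat 2 was then highest in 21 members, so no direction is given for the group.

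Regulators of the factors that carry other names were also read, from a list of 47 genes of which 42 were measured. All 42 lay above background on all 3 arrays, at the main cutoff and at both higher ones, against 71.4%, 55.02% and 47.01% of genes outside the receptor families. They include the kinase Mtor (8.02 ± 0.058) and its partner Rptor (8.19 ± 0.014), the eIF4A inhibitor Pdcd4 (7.32 ± 0.20), the ribosome recycling factor Abce1 (10.79 ± 0.020), and Dhps and Dohh, the enzymes that make hypusine on eIF5A (7.64 ± 0.21 and 7.83 ± 0.076; SD, n = 3). Rheb, the GTPase that activates mTOR, had the largest SD of the list and read 8.34, 8.84 and 8.62 in repeats 1, 2 and 3. Dhps, at 7.48, 7.55 and 7.88, and Pdcd4, at 7.25, 7.54 and 7.17, followed. Their median SD was 0.094 log2 units, and 0 of 42 passed limma's variance test with adjustment over all genes, with 1 of 42, Rheb, at an unadjusted p under 0.05.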

How the data were processed

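The authors deposited a linear intensity for each probe set. The submitters' processing notes name GCOS 1.4, and how background was removed, arrays were normalized and probes were summarised is not stated in the labels. Of 26730 probe sets, 20764 had 1 symbol in the platform annotation, which can be old, and were used; 1419 had several and 4547 none. All 74 probe sets of the members matched RefSeq gene identifiers with the same symbol. Intensities were turned into log2 values, and probe sets with the same symbol were averaged. Variation between repeats was tested with limma 3.58.1 in R 4.3.3 (intercept-only fit, variance over the trended, robust prior variance, F distribution with 2 and 9.86 degrees of freedom, Benjamini-Hochberg at 0.05) over the 13598 genes that passed background on 1 array or more, and the script was tested on simulated data. The F ratio and its p-value were computed from limma's fit and prior variance and are not a test that limma itself offers. The largest prior degrees of freedom, 9.86, served for every gene. Other steps used pandas 2.3.3 and numpy 2.4.6. All members could be named; values per array were given for paralog sets, members not above background, the 6 largest and 3 smallest SDs and unadjusted p under 0.05. Members, gene lists, paralog classes and motifs were chosen with earlier results of these data known. The interferon-induced list, the span of 0.5 log2 units, the comparison keyed to the difference of Eif2ak2 and further examples beyond that rule, including the regulators Mtor, Rptor, Abce1 and Dohh, were chosen after the values were seen. Receptor pseudogenes were dropped from the background set after a first run that held 1186 genes. Alternatives were higher cutoffs, 2 of 3 arrays, quantile normalization, median centring, the highest probe set, other prior settings, all genes, and leaving out each repeat.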

Additional observations from a re-analysis of the deposited data

Results flagged for a closer look

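Probe sets that name several genes were left out of every comparison above, and 15 of them list a translation factor symbol together with others. All 15 lay above the background cutoff on all 3 arrays, so there is signal in data that the comparisons do not use, though it cannot be given to a gene. The 4 probe sets that list Eif1a with 7 other symbols had means up to log2 10.05, and repeat 2 was 1.58- to 1.73-fold above the mean of the others on each, while the probe set naming Eif1a alone was 1.07-fold above. The difference between these probe sets was not tested. The 2 probe sets shared by Eif3j1 and Eif3j2 had means up to 10.94, and repeat 2 was 1.21- to 1.25-fold above the others. The 4 that list Pabpc4 with a predicted gene had means up to 10.64, and the 2 that list Eif4a3 with Eif4a3l1 up to 10.28. Single probe sets listing Eef1a1 with 2 other symbols, Eif5 with a small nucleolar RNA and Eif4ebp3 with Ankhd1 had means of 12.35, 7.06 and 6.17.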

How the results depend on the processing

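The count of members above background stayed between 56 and 63 of 65 under all alternatives, and that of regulators at 42 of 42. Tissue-restricted paralogs above background fell to 2 at the receptors' 99th percentile and to 2 with other silent families as background, since both cutoffs lie higher. With receptor pseudogenes kept in the background set, an alternative chosen after seeing the data, 62 members and 5 restricted paralogs were above background, 0 members passed the variance test, and the adjusted p of Eif2ak2 in limma's test was 0.0574. Members passing limma's variance test at an adjusted p under 0.05 numbered 0, with 5 at an unadjusted p under 0.05 (2 to 6 over the alternatives, with 2 without repeat 2 and 2 without the trend), and became 1 (Eif2ak2) once arrays were centred on their medians; the cause was not tested. The median SD of members ranged from 0.052 to 0.077 when 1 repeat was left out. No paired analysis was possible because the samples form 1 group. With 3 arrays, small differences between repeats cannot be resolved, and members near the cutoff have signal too close to background to rank.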

Other observations

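Of the 65 genes, 8 were read by more than 1 probe set with a single symbol, and these did not always stand at one level. The probe sets of Eif4enif1 averaged log2 8.40 and 5.51, a difference of 2.89. Those of Eif4e, the cap-binding protein, averaged 6.88 and 5.71, and the lower one lay below the cutoff of other silent families on all 3 arrays. Eef2k was read at 5.94 and 4.96, Eif5a at 11.67 and 10.74, and Eif4e1b at 5.62 and 5.002. The probe sets of Eif2s2 differed by 0.11 only.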
